A study of Mus musculus with 17 samples.

Results

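DNA replication and nucleotide supply genes were followed in both ventricles of the newborn mouse heart, the left (LV) and the right (RV). The 45 members code for the proteins that license and unwind replication origins, copy DNA and make its building blocks. They were chosen by symbol, with the messenger RNA row of highest mean taken where a gene had several rows, and are 45 of the 16569 named genes in the deposited tables. Of the 45, 41 passed the expression filter (at least 1 RPKM in at least 2 libraries) and were tested. The libraries came from total RNA of male C57Bl/6 mice at postnatal day 0 (P0, before the ductus arteriosus closes), day 3 (P3) and day 7 (P7), the last being an age by which most cardiomyocytes have terminally differentiated, per the labels. The labels name no treatment, and each of the 6 groups had 3 biological replicates except RV P7, which had 2. RPKM is reads per kilobase of transcript, scaled to the reads of the library, so levels can be compared between genes. Each change is a difference of mean log2(RPKM + 1) from limma, which understates the change of low genes. A member is called when its Benjamini-Hochberg adjusted p over all 10668 tested rows is under 0.05.

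Before S phase, the origin recognition complex, Cdc6 and Cdt1 load the ring of Mcm2 to Mcm7 onto origins. The kinase Cdc7 with Dbf4, together with Mcm10, Cdc45 and the GINS complex, turns that ring into the active helicase. Polymerase alpha with its primase starts each strand, the clamp loader Rfc places Pcna, and polymerases delta and epsilon extend the DNA while Rpa covers single strands. Fen1, RNase H2 and Lig1 finish the lagging strand, and ribonucleotide reductase, Tyms and Tk1 supply deoxynucleotides. In the mouse heart, cardiomyocytes leave the cell cycle within days after birth, while many other cardiac cells keep dividing.

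Many genes of this group are known targets of the E2F factors, which bind close to transcription starts and act at the entry to S phase. Promoter windows of 300 bases (250 before the start and 50 from the start on) were found in the RefSeq table (GRCm38.p6) for 37 of the 45 members, 43 windows in all, and a gene with several windows is counted once, with a match in any of them. The E2F motif was searched as TTTCCCGC, TTTCGCGC, TTTGCCGC or TTTGGCGC on both strands, where matches may overlap. It stood in 14 of these 37 members (37.8%), in 4.79% of 8180 tested genes and in 2.605% of the 27025 genes of the whole table. Upstream stretches of 4 members with a match are shown because they hold matches shortly before the start and before the gene's annotated extent. The choice was made by position, and neither timing nor role entered it. Each reads 5′ to 3′ on the strand of its gene and ends before the gene's annotated start, and capitals mark the E2F matches.
Mcm6 (chr1:128359706-128359875, minus strand): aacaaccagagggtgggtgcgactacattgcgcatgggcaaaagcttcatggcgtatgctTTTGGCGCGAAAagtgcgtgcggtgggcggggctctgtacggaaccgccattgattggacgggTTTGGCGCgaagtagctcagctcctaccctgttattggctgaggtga
Mcm5 (chr8:75109339-75109467, plus strand): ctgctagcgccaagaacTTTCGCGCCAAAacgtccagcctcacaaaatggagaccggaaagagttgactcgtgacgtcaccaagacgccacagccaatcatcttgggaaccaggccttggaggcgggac
Rfc3 (chr5:151651209-151651378, minus strand): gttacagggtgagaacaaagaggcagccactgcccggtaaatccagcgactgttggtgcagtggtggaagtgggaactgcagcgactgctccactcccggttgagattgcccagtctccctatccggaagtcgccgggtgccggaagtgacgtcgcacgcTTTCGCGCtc
Gins3 (chr8:95633389-95633558, plus strand): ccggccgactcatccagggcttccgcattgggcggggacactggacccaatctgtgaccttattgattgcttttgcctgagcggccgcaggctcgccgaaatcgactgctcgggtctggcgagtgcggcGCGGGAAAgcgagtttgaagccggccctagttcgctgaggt
In Mcm6 the matches began 110, 106 and 47 bases before the start, and the first 2 of them overlapped. In Mcm5 they began 153 and 149 bases before the start used for its window, in Rfc3 10 bases and in Gins3 41 bases before it. Rfc3 has a further match that begins at the start itself and is not shown.

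The CHR element, searched as TTTGAA on both strands, is known from promoters of late cell cycle genes. It stood in a window of 7 of the 37 members (18.9%) and of 17 of 24 genes (70.8%) of a list of mitosis and spindle genes, against 13.4% of tested genes. The E2F motif stood in 2 of those 24 (8.33%). The CCAAT box (CCAAT, both strands) stood in 59.5% of the members and 42.5% of tested genes. Median GC content over all windows of the genes, 1 value a window, was 60% for the members and 61% for tested genes. These are matches of letters and not measured binding.

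**Figure D1:**
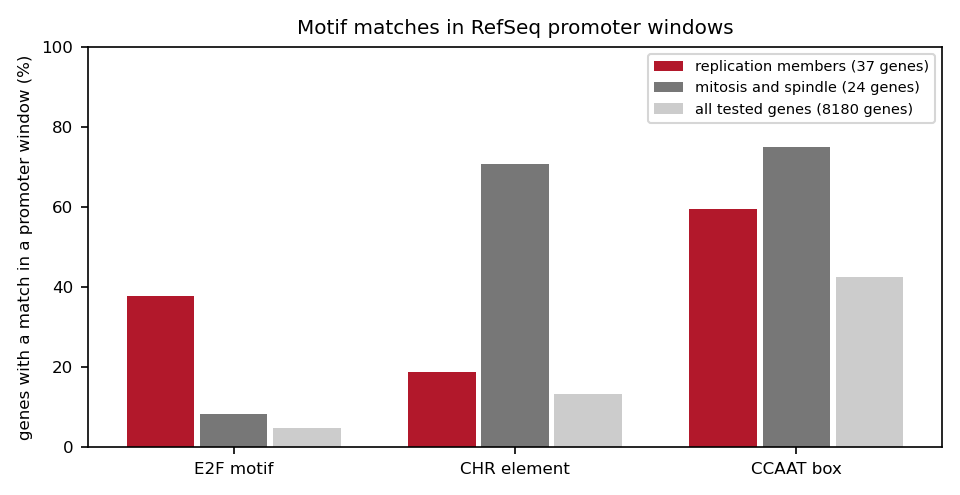
Share of genes (%) with at least 1 match to each of 3 motifs in any of their promoter windows, for the 37 members, 24 mitosis and spindle genes and 8180 tested genes. E2F matches are more frequent in the members (37.8%) than in the mitosis list (8.33%), and CHR matches the reverse (18.9% against 70.8%).

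The recovered library sizes were 27.6 to 41.1 M reads, and each tested member had 14 to 11350 reads in a library. The row NM_008710 separated 7 libraries of the later ages, with 0.128 to 0.205 RPKM, from the other libraries, with at least 2.99 RPKM, and no P0 library was among the 7. They were replicates 2 and 3 of LV P3, LV P7 and RV P3, and replicate 2 of RV P7. The labels do not explain this split, which may reflect a difference between the animals. Its origin was not tested, and in part it cannot be told apart from age. LV P3 replicate 2, one of the 7, also lay below the other LV P3 libraries, with a median member difference from the LV P0 mean of -0.40 on the log2 scale against -0.07 and -0.08. Counts of called genes are also given without the 7.

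Nearly the whole replication machinery was lower at P7 than at P0. In the LV 40 of 41 members were lower and none was higher, where 53% of all tested rows were lower; in the RV 39 of 41 were lower, against 46.1% of all rows. The median LV change was -0.91 and the median RV change -0.76, beside medians of -0.31 and -0.29 over all rows. Summed over the members, the RPKM of the LV libraries was 993, 955 and 854 at P0, 859, 657 and 854 at P3 and 442, 424 and 437 at P7. In the RV the sums were 947, 844 and 756, then 637, 597 and 715, then 433 and 436. Every P7 library lay below every P3 library of its chamber. The libraries of P7 all lay below those of P0 for 40 members in the LV (57% of all rows) and for 39 in the RV (56.4%). At P7 the median member stood at 48.2% of its P0 level in the LV and 51.7% in the RV.

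The median of all rows was lower with age too, and the listed rows held a smaller share of each library: 71.2% ± 1.71 (SD, n = 3) at LV P0, 62.8% ± 4.16 at LV P3 and 56.5% ± 2.34 at LV P7, and 70.1%, 61.1% and 56.2% in the RV. Scaling to the upper quartile moved the all-row median for P7 against P0 from -0.31 to -0.06 in the LV and from -0.29 to -0.03 in the RV. With it the lower share of all calls went from 81.7% to 57.5% in the LV and from 82.4% to 52.1% in the RV, and with a common total of the listed rows to 59.9% and 49.7%. The members still fell with upper-quartile scaling, 37 of 40 tested in the LV (29.3% of all rows lower) and 34 of 40 in the RV (21.2%), with medians of -0.65 and -0.54. In these bulk samples, fewer cells of a type and less RNA per cell cannot be told apart.

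**Figure D2:**
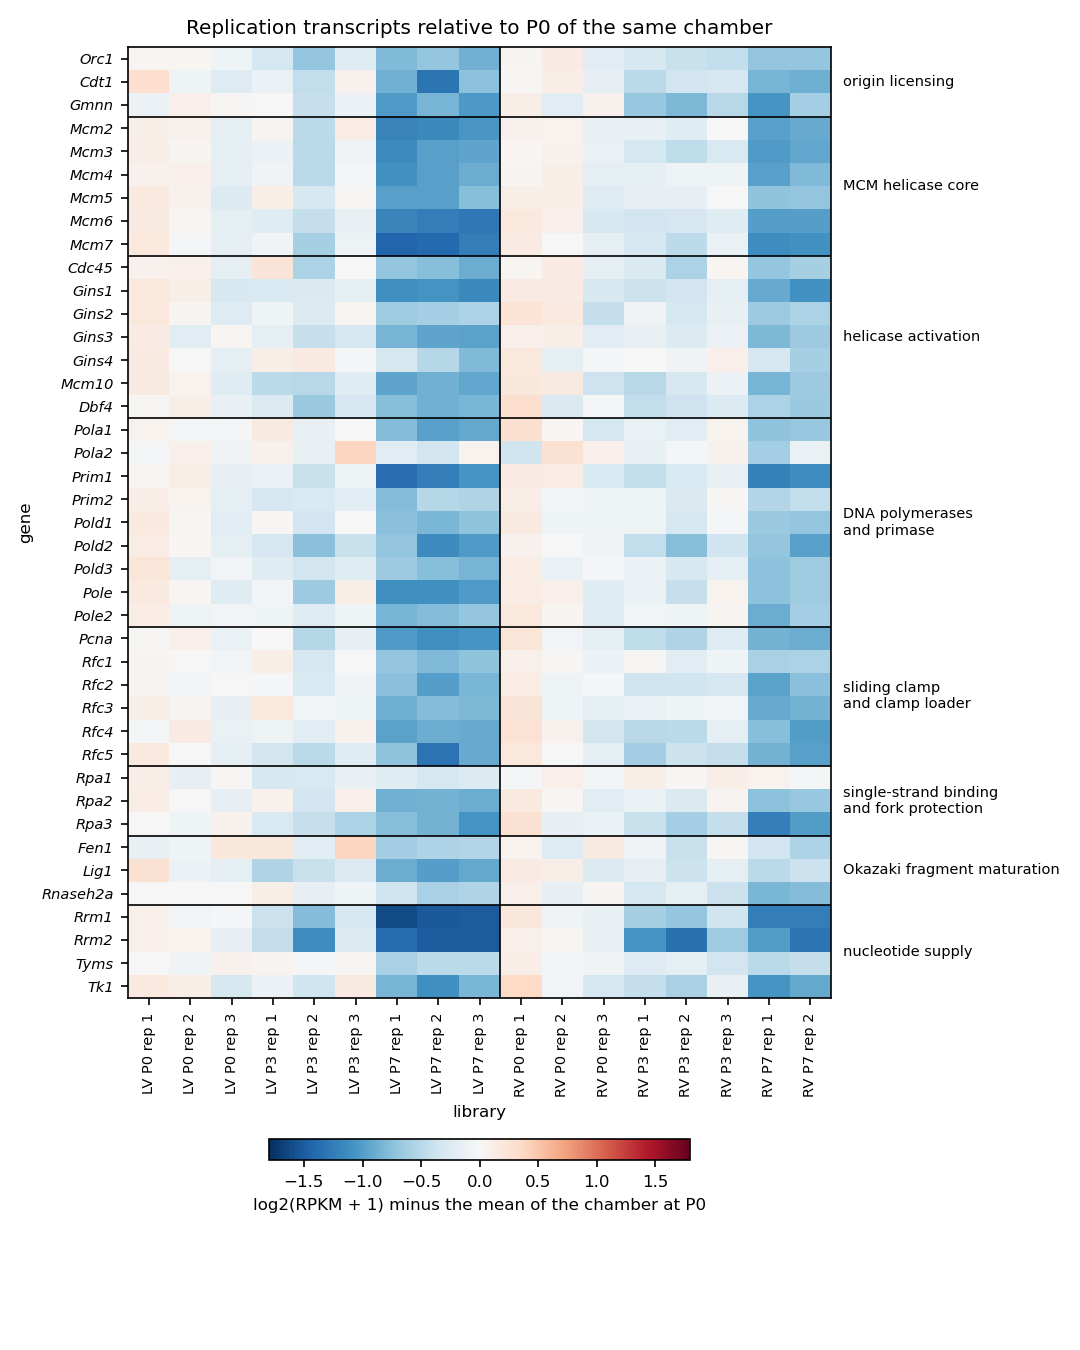
Change of each of the 41 tested members (rows, grouped by role) in each of the 17 libraries (columns), as log2(RPKM + 1) minus the P0 mean of the same chamber; blue is lower and red is higher. The P7 columns are blue for nearly all members, the P3 columns are paler, and Pola2 and Rpa1 stay pale.

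Among the 5 licensing factors 3 were tested, and all 3 fell from P0 to P7 in both chambers. Geminin, Gmnn (NM_020567, chr13:24751845-24761937), binds Cdt1 and stops origins from being licensed again. It stood at 33.1, 38.4 and 36.3 RPKM in LV P0, 35.8, 26.7 and 33.4 in LV P3 and 17.1, 19.5 and 17 in LV P7. In the RV it stood at 36.6, 29.1 and 35.7, then 20.5, 18.7 and 23.5, then 15.6 and 21.6. In the LV 2 of 3 P3 libraries lay within the P0 range, whereas all RV P3 libraries lay below all RV P0 libraries. From P0 to P7 Gmnn changed by -0.97 (SE 0.13, adjusted p = 3.87e-06) in the LV and by -0.84 (SE 0.14, adjusted p = 1.03e-04) in the RV. Cdt1 (NM_026014, chr8:122568015-122573130), the loader of the Mcm ring, went from 3.08 ± 0.805 RPKM (SD, n = 3) to 1.08 ± 0.412 in the LV, a change of -0.98 (SE 0.16, adjusted p = 3.70e-05). Orc1, the large subunit of the origin recognition complex, changed by -0.79 (SE 0.12, adjusted p = 2.08e-05) in the LV and by -0.71 in the RV. Orc6, another subunit, and Cdc6 did not pass the filter. Their highest values in any library were 0.292 and 0.419 RPKM, and each has 2 rows in the tables, of which the higher was used.

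The 6 subunits of the Mcm helicase ring fell together and mostly after P3. Mcm6 (NM_008567, chr1:128331575-128359705) stood at 61.1, 55.3 and 48.4 RPKM in LV P0, 46.8, 40.3 and 49.8 in LV P3 and 23.4, 22.4 and 21.8 in LV P7. In the RV its values were 54.5, 51.2 and 39.1, then 37.3, 38.4 and 40.8, then 23.6 and 23.5. P7 lay clear of both earlier ages in each chamber, while P3 overlapped P0 in both. The P7 against P0 change of Mcm6 was -1.24 (SE 0.11, adjusted p = 3.57e-08) in the LV and -0.99 (SE 0.13, adjusted p = 3.77e-06) in the RV. Mcm7 (NM_008568, chr5:138164583-138172111) had the largest fall of the ring in both chambers, to 37.6% and 45.2% of P0. Its LV values were 56.8, 48.9 and 44.6 at P0, 47.8, 32.6 and 46.7 at P3 and 17.8, 18.3 and 20.5 at P7, a P7 against P0 change of -1.36 (SE 0.13, adjusted p = 8.36e-08). Mcm2, which carries a histone-binding tail, stood at 34.6, 33.9 and 28.2 in LV P0, 33.4, 22.8 and 35.3 in LV P3 and 13.4, 13.9 and 15.1 in LV P7. No subunit was called lower at P3 against P0 in the LV, and only Mcm3 was in the RV (-0.35, adjusted p = 0.0203), a call lost under both other scalings. From P3 to P7 all 6 were called lower in both chambers, with log2 changes of -1.11 to -0.80 in the LV and -0.83 to -0.62 in the RV. At P7 the subunits held 37.6% to 51.2% of their P0 level in the LV and 45.2% to 58.5% in the RV.

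**Figure D3:**
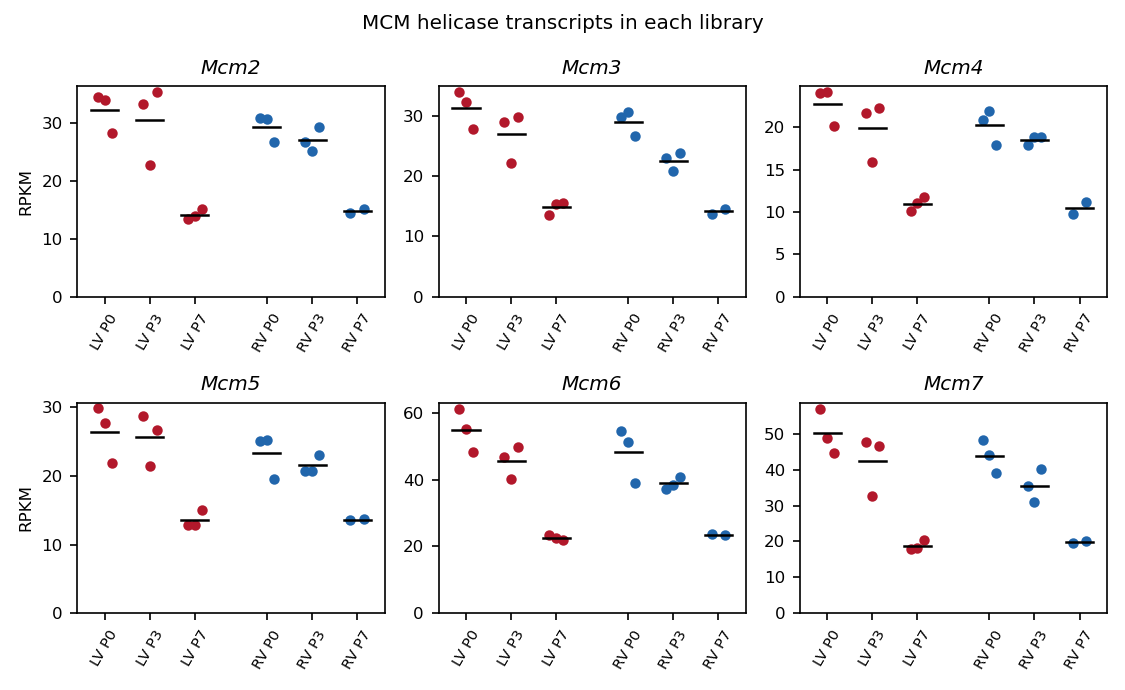
RPKM of the 6 Mcm ring subunits in each library (points) with the group mean (bar), LV in red and RV in blue. In every panel the P7 points lie below all P0 and P3 points of the same chamber, and the lowest LV P3 point is replicate 2.

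The helicase activators fell in both chambers, with 7 of 7 tested members lower at P7 against P0 in each. The GINS subunit Gins2 (NM_178856, chr8:120581266-120589075) stood at 20.8, 18.7 and 15.2 RPKM in LV P0 and 17.1, 15.1 and 18.6 in LV P3, ranges that overlap, and at 11.2, 11.5 and 12 in LV P7. Its P7 against P0 change was -0.61 (SE 0.14, adjusted p = 0.00130) in the LV and -0.61 (SE 0.16, adjusted p = 0.00368) in the RV. Gins4 (NM_024240, chr8:23226610-23237668), of the same 4-part complex, fell least of the activators: 14.4, 12.8 and 11.3 in LV P0, 13.8, 14.3 and 12.4 in LV P3 and 10.3, 8.63 and 6.91 in LV P7, -0.53 (SE 0.13, adjusted p = 0.00143). The calls of Gins2 and Gins4 were lost in both chambers under upper-quartile scaling and with a common total of the listed rows. The RV call of Cdc45 was lost with that common total and with limma voom on the recovered reads. The level left varied among the subunits: Gins1 was at 40.3% of P0 in LV P7, Gins3 at 41.9%, Gins2 at 63.3% and Gins4 at 67.2%. Differences between subunits were not tested. Mcm10, Cdc45 and the kinase partner Dbf4 had means of 1.31 to 2.02 RPKM over all libraries and LV changes of -0.91, -0.79 and -0.82. The kinase Cdc7 did not pass the filter, with at most 0.0466 RPKM in a library in the row used.

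Of the 9 polymerase and primase subunits, 8 fell in each chamber, although the RV calls of Prim2, a primase subunit, and Pole, the catalytic subunit of polymerase epsilon, were lost with a common total of the listed rows, and that of Prim2 also with the upper quartile. Pold2 (NM_008894, chr11:5872180-5878256), the second subunit of polymerase delta, was the highest of them and fell in both steps in the LV. It stood at 35.8, 33.2 and 28.9 RPKM in LV P0, 26.2, 19 and 24.3 in LV P3 and 19.6, 14.2 and 15.6 in LV P7, with changes of -0.48 (SE 0.14, adjusted p = 0.0123) by P3 and -0.47 (SE 0.14, adjusted p = 0.0127) after it. The earlier call of Pold2 was lost with a common total of the listed rows and the later one with the upper quartile. Both were lost with limma voom on the recovered reads and when certain single LV libraries were left out. Prim1 (NM_008921, chr10:128015215-128030030), the catalytic primase subunit, stood at 24.1, 25.4 and 21.2 in LV P0, 21.5, 17.5 and 22.2 in LV P3 and 8.49, 9.35 and 10.8 in LV P7. In the RV it stood at 21.8, 21.5 and 16.1, then 14.2, 16.1 and 17.8, then 7.88 and 8.49. Its P7 against P0 change was -1.22 (SE 0.13, adjusted p = 1.68e-07) in the LV and -1.17 (SE 0.14, adjusted p = 2.10e-06) in the RV, the largest of this role in each. Pola1 (NM_008892, chrX:93304766-93632387), the catalytic subunit of polymerase alpha, had LV P3 values of 7.95, 6.30 and 7.11 around its LV P0 values of 7.37, 6.87 and 6.86, and fell to 3.68, 3.08 and 3.25 at LV P7. Its partner Pola2 (NM_008893, chr19:5940543-5964238) was the 1 member not called lower in either chamber. Pola2 stood at 2.95, 3.29 and 2.88 in LV P0, 3.26, 2.67 and 4.25 in LV P3 and 2.51, 2.21 and 3.21 in LV P7, and the RV values were 1.93, 3.54 and 3.0, then 2.41, 2.66 and 2.96, then 1.47 and 2.46. Its change was -0.16 in the LV (95% interval -0.50 to 0.19, adjusted p = 0.410) and -0.36 in the RV (-0.75 to 0.03, adjusted p = 0.103). The intervals do not exclude a fall, and the LV sign turned under other scalings. Pole2, the second subunit of polymerase epsilon, had overlapping RV values at P0 and P3 (8.89, 7.98 and 6.37 at P0, 7.39, 7.26 and 7.97 at P3) and then stood at 3.66 and 4.66.

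The clamp and all 5 clamp loader subunits fell in both chambers. Pcna (NM_011045, chr2:132249286-132253180), the sliding clamp that tethers polymerases to DNA, was the highest member per length. It stood at 164, 172 and 148 RPKM in LV P0, 160.1, 113 and 146 in LV P3 and 79.2, 74.1 and 76.7 in LV P7. In the RV it stood at 169.9, 142 and 130.0, then 106, 100.1 and 124, then 80.7 and 78.5. All RV P3 libraries were below all RV P0 libraries, which was not so in the LV. Pcna changed by -1.06 (SE 0.12, adjusted p = 5.28e-07) from P0 to P7 in the LV and by -0.87 (SE 0.13, adjusted p = 3.23e-05) in the RV. The loader subunit Rfc2 (NM_020022, chr5:134582690-134598328) went from 35.9, 33.5 and 34.8 through 33.9, 28.5 and 33.2 to 20.3, 17 and 19.2 in the LV. Rfc3 (NM_027009, chr5:151642817-151651208) stood at 18, 17.3 and 14.9 in LV P0 and 19.2, 16.1 and 15.6 in LV P3, and then at 8.58, 9.24 and 9.04. Its RV values were 19, 15.1 and 14.2, then 14.7, 15.1 and 15.4, then 8.04 and 8.40. In both chambers P3 overlapped P0 and every P7 library lay lower, with P7 against P3 changes of -0.85 (SE 0.11, adjusted p = 2.24e-05) in the LV and -0.80 (SE 0.12, adjusted p = 3.05e-04) in the RV.

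The 3 subunits of the single-strand binding complex Rpa differed in level and in course. Rpa3 (NM_026632, chr6:8255936-8259141), the smallest subunit, was highest and fell in both steps: 32.7, 31.1 and 34.5 RPKM in LV P0, 26.9, 24.2 and 21.6 in LV P3 and 18.8, 17.7 and 15 in LV P7, with a P7 against P0 change of -0.90 (SE 0.12, adjusted p = 3.24e-06). Its call for the earlier LV step was lost under both other scalings and with limma voom on the recovered reads. Rpa2 (NM_011284, chr4:132768360-132778746) stood at 22.9, 20.7 and 18.7, then 21.9, 16.1 and 22.2, then 10.9, 11.1 and 10.6 in the LV, with a change of -0.06 by P3 and of -0.82 after it. Rpa1 (NM_026653, chr11:75300259-75348454), the large subunit that holds most of the DNA contacts, had values of only 0.60 to 1.17 RPKM in the row used. It changed by -0.26 (SE 0.10, adjusted p = 0.030) in the LV, and it no longer passed the filter under either other scaling. In the RV its change was 0.01 (95% interval -0.22 to 0.25, adjusted p = 0.923), with 0.678, 0.834 and 0.658 at P0 and 0.805 and 0.674 at P7. Rpa1 has 2 rows in the tables, and a row may leave out reads shared between rows. Timeless, a fork protection factor, did not pass the filter (at most 0.137 RPKM).

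The 3 factors that mature Okazaki fragments fell in both chambers from low or moderate levels. Rnaseh2a (NM_027187, chr8:84956610-84969598), the catalytic subunit of RNase H2, had among the smallest LV falls of all members. It stood at 9.02, 9.03 and 9.12 RPKM in LV P0, 9.78, 8.05 and 8.51 in LV P3 and 6.88, 5.73 and 5.94 in LV P7, -0.49 (SE 0.10, adjusted p = 3.98e-04). Lig1 (NM_010715, chr7:13277175-13311426), the ligase that seals the fragments, stood at 4.06, 2.89 and 2.72, then 1.88, 2.18 and 2.52, then 1.26, 1.11 and 1.21 in the LV. Its RV values were 2.73, 2.59 and 1.82, then 2.03, 1.56 and 2.0, then 1.40 and 1.56, and its change was -0.93 (SE 0.13, adjusted p = 8.68e-06) in the LV and -0.44 (SE 0.15, adjusted p = 0.0191) in the RV. Lig1 was the member with the most divergent P7 against P0 changes, yet the difference of 0.50 (SE 0.20, adjusted p = 0.922) was not called. The flap nuclease Fen1 had the fewest reads of the tested members, 14 to 111 in a library, and changed by -0.57 in the LV and -0.45 in the RV. Fen1 has 3 rows in the tables and Lig1 has 2, so their rows too may leave out shared reads. The RV calls of Fen1 and Lig1 were lost under both other scalings, with limma voom on the recovered reads and with only the libraries high in NM_008710, and the last 2 settings also ended the LV call of Rnaseh2a. They were also lost without RV P0 replicate 1 or RV P7 replicate 1, that of Fen1 also without RV P0 replicate 3 or RV P7 replicate 2, and that of Lig1 also without RV P0 replicate 2.

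Ribonucleotide reductase, which makes deoxynucleotides from ribonucleotides, showed the largest LV falls on the log2(RPKM + 1) scale; as a share of P0, Fen1 (27.2%) and Orc1 (31.1%) stood lower at LV P7 than Rrm1 (33.4%). Its large subunit Rrm1 (NM_009103, chr7:102441695-102469771) stood at 69.2, 62.7 and 63.2 RPKM in LV P0, 49.5, 37.2 and 52.5 in LV P3 and 20.6, 22.2 and 22.3 in LV P7. In the RV it stood at 64.4, 53.3 and 50.8, then 36.5, 34 and 43.3, then 23.1 and 23. No 2 ages of a chamber overlapped, and the P7 against P0 change was -1.54 (SE 0.12, adjusted p = 3.79e-09) in the LV and -1.24 (SE 0.13, adjusted p = 5.07e-07) in the RV. The mean fell 3.0-fold in the LV and 2.44-fold in the RV. The small subunit of S phase, Rrm2 (NM_009104, chr12:24708254-24714146), stood at 90.7, 88.5 and 76.2 in LV P0, 63, 38.6 and 71.3 in LV P3 and 32, 29.3 and 29.5 in LV P7. In the RV it stood at 81, 78 and 68.7, then 35.7, 29.2 and 48.4, then 37.3 and 29.7. The RV libraries of P3 and P7 overlapped, and 87.3% of the RV log2 fall was in place by P3, against 40.9% in the LV. Rrm2 changed by -1.46 (SE 0.18, adjusted p = 1.48e-06) in the LV and by -1.16 (SE 0.20, adjusted p = 1.01e-04) in the RV. Tk1, which salvages thymidine, changed by -0.92 and -0.99, and Tyms, which makes thymidylate, by -0.51 and -0.46. All 4 were called in both chambers.

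**Figure D4:**
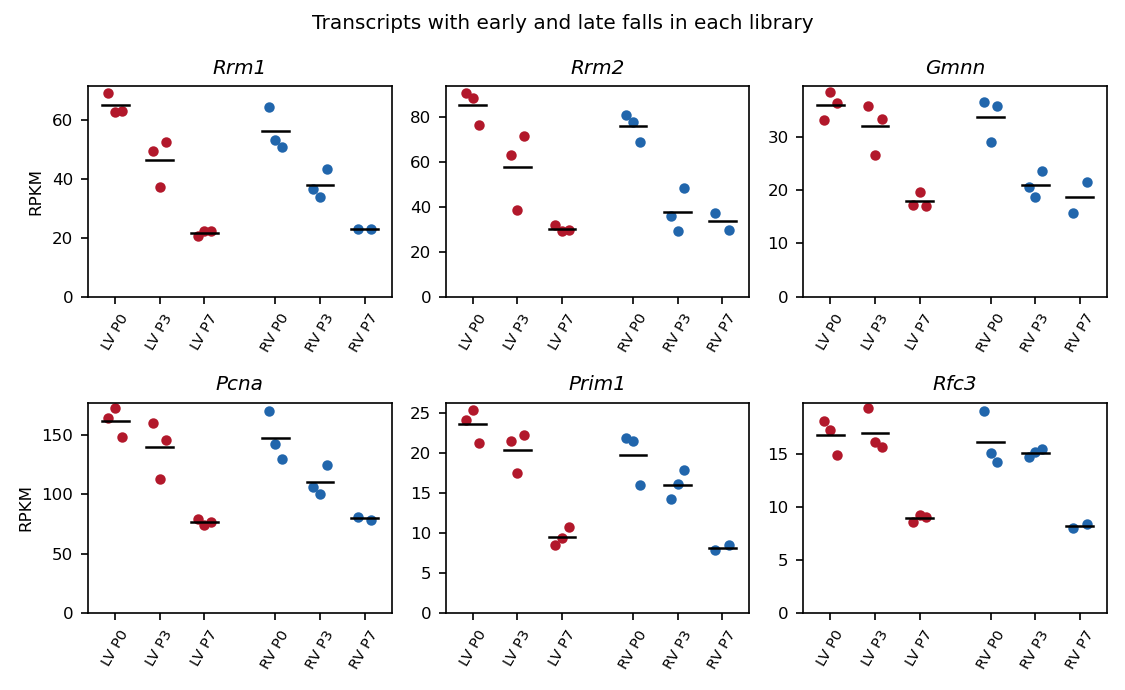
RPKM of 6 members in each library (points) with the group mean (bar), LV in red and RV in blue. Rrm1 steps down at each age, RV points of P3 and P7 overlap for Rrm2 and Gmnn, and Rfc3 falls after P3 in both chambers.

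In the LV the fall came mainly between P3 and P7. At P3, 7 of 41 members were lower than at P0 (Dbf4, Lig1, Orc1, Pold2, Rpa3, Rrm1 and Rrm2), a share near the 20.6% of all rows, while 39 were lower at P7 than at P3, against 27.9% of all rows. The member medians were -0.19 for the earlier and -0.70 for the later step, beside -0.13 and -0.17 over all rows. The P3 libraries all lay below the P0 libraries for 10 members (30.8% of rows), and the P7 libraries all below the P3 libraries for 38 (36.3%). In the RV 12 members were lower at P3 (21.5% of rows) and 25 were lower at P7 than at P3 (14.8%), with medians of -0.26 and -0.50 beside -0.09 and -0.19. The RV non-overlap counts were 13 for the earlier step (30% of rows) and 35 for the later one (49.7%), the latter with 2 P7 libraries. Of the log2 fall of the members called lower at P7, a median of 18.1% was in place by P3 in the LV and 33.6% in the RV. For all rows called lower it was 46.0% and 48.6%. Under upper-quartile scaling the member shares by P3 were 7.64% for the LV and 38.2% for the RV, and with a common total of the listed rows 5.54% and 16.0%. Without LV P0 replicate 1 or LV P3 replicate 2 the earlier LV count was 2, without RV P0 replicate 1 the earlier RV count was 5, and without RV P7 replicate 1 the later RV count was 8. Scaling changed the split of all calls: the lower share went from 74.0% to 49.0% with the upper quartile and 44.4% with the listed total for the earlier LV step, and from 80.9% to 56.5% and 64.0% for the later one. In the RV it went from 68.9% to 51.7% and 26.5%, and from 85.5% to 39.4% and 71.9%. The later step stayed the more negative for 38 and 40 of 40 members in the LV, and for 31 and 37 of 40 in the RV, under these scalings. With the values as deposited it was so for 38 of 41 members in the LV and 33 in the RV. Of all 10668 rows it was so for 5864 and 6490. With only the 10 libraries at 1 RPKM or more of NM_008710, which leaves 1 library per group at P3 and P7, the later step gave 16 LV members and 0 RV members and the earlier step 0 and 3, while P7 against P0 still gave 36 and 34. In that fit the lone libraries are assumed to vary like those of P0.

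The difference between the later and the earlier step was tested directly, a negative value meaning a larger fall after P3. In the LV 9 members were called with a larger later fall, against 2.21% of all rows: Mcm2, Mcm5, Mcm6, Mcm7, Pola1, Prim1, Rfc2, Rfc3 and Rpa2. Rfc3 differed by -0.87 (SE 0.19, adjusted p = 0.0102), Mcm2 by -0.94 (SE 0.22, adjusted p = 0.0190), Pola1 by -0.91 (SE 0.23, adjusted p = 0.0261) and Mcm5 by -0.82 (SE 0.22, adjusted p = 0.0384). In the RV 2 members were called, Rfc3 at -0.73 (SE 0.19, adjusted p = 0.0289) and Pole2 at -0.71 (SE 0.21, adjusted p = 0.0477), against 3.87% of all rows, so the RV count was near the background. With all libraries no member was called with a larger earlier fall in either chamber; Rrm2 in the RV had the highest value, 0.87 (SE 0.32, adjusted p = 0.122). The LV count was 0 without LV P3 replicate 1, 1 without LV P3 replicate 3, 2 without LV P0 replicate 3 or LV P7 replicate 2, and 20 without LV P3 replicate 2, which had the lowest member sum of its group. It was 5 without LV P0 replicate 2, LV P7 replicate 1 or 3, or RV P3 replicate 1. The RV count was 0 without RV P0 replicate 2 or 3, any 1 RV P3 library, or RV P7 replicate 1. It was 1 without LV P0 replicate 2 or 3, LV P3 replicate 1 or 3, any 1 LV P7 library, or RV P7 replicate 2, and 4 without LV P3 replicate 2. Rrm2 in the RV was called with a larger earlier fall without LV P3 replicate 2 or RV P3 replicate 3. The steps last 3 and 4 days, and per day 2 LV members and no RV member were called.

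**Figure D5:**
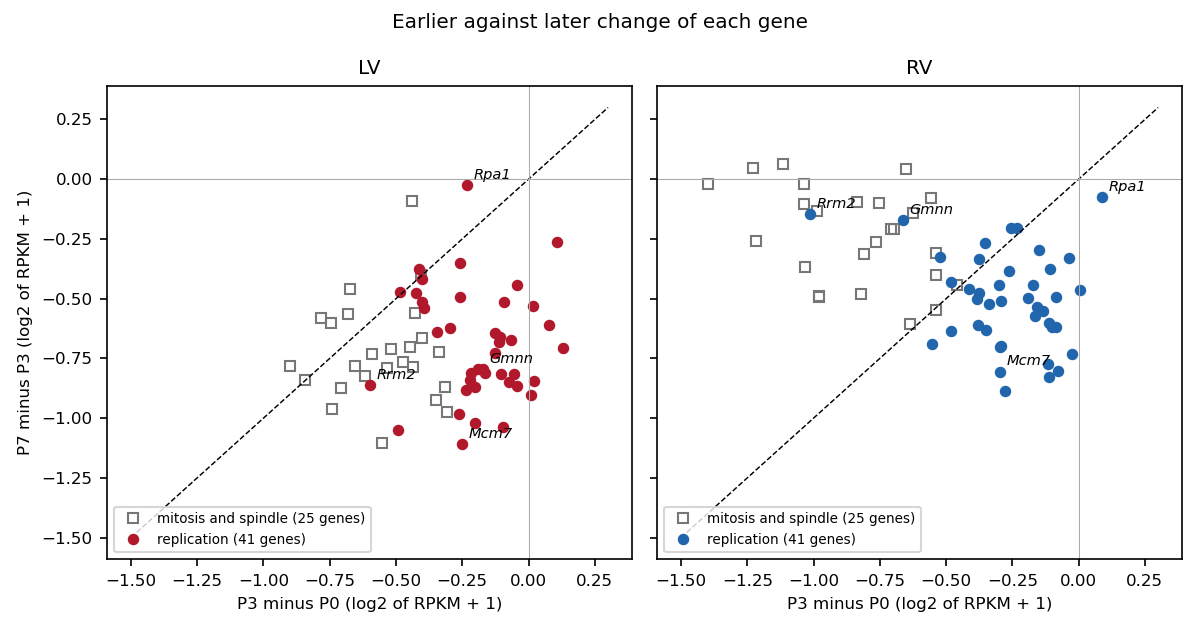
Change from P0 to P3 (horizontal) against change from P3 to P7 (vertical), both in log2(RPKM + 1), for the 41 members (filled) and 25 mitosis and spindle genes (open squares), with LV and RV in separate panels. Below the dashed line of equal changes the later fall is larger: 38 of 41 members lie there in the LV and 33 in the RV, where 24 of the 25 mitosis genes lie above it. Of all 10668 tested rows (not drawn), 5864 in the LV and 6490 in the RV had the more negative later step.

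The genes of mitosis, which follow replication in the cycle, fell mostly before P3 in the RV. All 25 tested mitosis and spindle genes were lower at P7 than at P0 in both chambers, against 53% of all rows in the LV and 46.1% in the RV. In the RV all 25 were lower at P3 (21.5% of all rows) and 3 were lower at P7 than at P3 (14.8%). In the LV the counts were 21 (20.6%) and 24 (27.9%). The earlier LV count was 13 with the upper quartile and 10 with the listed total, the later LV count 21 with either, the earlier RV count 25 and 20, and the later RV count 0 and 1. With only the libraries high in NM_008710 the LV counts were 3 and 13 and the RV counts 21 and 0. A median of 77.2% of their log2 fall was in place by P3 in the RV and 43.3% in the LV. The proliferation antigen Mki67 stood at 41 ± 6.93 RPKM (SD, n = 3) in RV P0, 27.6 ± 4.48 in RV P3 and 25.8 ± 0.857 (n = 2) in RV P7, and at 54.1 ± 6.92, 40.1 ± 6.53 and 26.7 ± 1.54 in the LV. Bub1b, a spindle checkpoint kinase, had log2 differences of -0.98 and -0.49 in the earlier and later RV step, Anln, a cytokinesis scaffold, of -1.22 and -0.26, and the mitotic cyclin Ccnb1 of -1.40 and -0.02; for these 3 only the earlier step was called. Under upper-quartile scaling the RV share of the mitosis genes by P3 was 92.3%, and with a common total of the listed rows 77.8%. In the direct test of the steps, 3 of the 25 were called with a larger earlier fall in the RV, against 2.59% of all rows, and none in the LV (limma, 3 at an unadjusted p under 0.05). No test compared the lists. In the test of RV against LV, none of the 25 was called for the change from P0 to P3 or from P3 to P7. At an unadjusted p under 0.05 (limma) there were 1 and 12 of them, against 535 and 519 of 10668 rows. At P3 itself none was called between the chambers (smallest adjusted p = 0.0606). All 25 were negative there with an unadjusted p under 0.05, as 1147 of all rows had in either direction.

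Few differences between the chambers passed the test. Of the 41 members, none was called different between RV and LV at P0 (limma, 4 at an unadjusted p under 0.05) or at P7 (1), where 0.141% and 0.159% of all rows were called in either direction. At P3 Gmnn alone was called, with an RV minus LV difference of -0.58 (SE 0.13, adjusted p = 0.0373), where 0.225% of all rows were lower. The median RV against LV difference of the members was -0.13 at P0, -0.19 at P3 and -0.03 at P7, beside -0.06, -0.02 and -0.03 over all rows. Of the 41 members, 36 were negative at P0, 40 at P3 and 22 at P7, against 7076, 5991 and 6181 of 10668 rows. At P3 no member was called without LV P0 replicate 3, LV P3 replicate 1 or 3, or any 1 LV P7 library. Nor was any without RV P3 replicate 1 or 2, while 2 were called without RV P3 replicate 3 and 3 without LV P3 replicate 2. All RV P3 libraries lay below all LV P3 libraries for 6 members, against 8.76% of all rows. The main tests of the chambers did not pair the libraries. With LV and RV libraries of the same number treated as 1 animal, 7 members were lower in the RV at P3, against 3.19% of rows. Beside Gmnn (-0.58, adjusted p = 0.00141) these were Rrm2, Rfc4, Gins1, Pcna, Pola1 and Prim1, with differences of -0.58 to -0.33 and adjusted p of 0.00558 to 0.0444 in limma with that block. The change over time did not differ between chambers for any member at the threshold: the test of RV against LV gave 0 calls for P3 against P0, for P7 against P3 and for P7 against P0 (limma, 2, 4 and 1 members at an unadjusted p under 0.05, and 0 with voom), with 0%, 0% and 0.0375% of rows called. The largest such difference after P3 was that of Rrm2, 0.71 (SE 0.27, adjusted p = 0.984), with a 95% interval of 0.15 to 1.27.

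Other genes of the same processes mostly fell as well. Of 29 tested further replication factors, 28 were lower at P7 against P0 in the LV (53% of all rows) and 27 in the RV (46.1%). None was higher. With the upper quartile, 29.3% and 21.2% of all rows were lower. The RV count was 16 with the upper quartile, 15 with the listed total and 22 with only the libraries high in NM_008710, and the LV count 27, 27 and 25. The largest LV falls were those of the histone chaperone Asf1b (-1.12, from 22.3 ± 2.26 to 9.75 ± 1.30 RPKM), the fork factor Wdhd1 (-1.04) and the checkpoint adaptor Topbp1 (-1.0). Pold4, an accessory subunit of polymerase delta, was called in neither chamber, with 11.6 ± 1.52 RPKM at LV P0 and 13.5 ± 1.26 at LV P7 (0.20, adjusted p = 0.189); it was singled out after its values were seen. Of 14 other deoxynucleotide and thymidylate supply genes, 12 were lower in the LV and 11 in the RV, beside the same shares of all rows. The counts were 10 and 9 with the upper quartile and also with the listed total. The median changes of -0.78 and -0.76 became -0.67 and -0.72 with only the libraries high in NM_008710. Shmt1 (-1.31) and Shmt2 (-1.10), serine hydroxymethyltransferases of the folate cycle, and Umps (-1.06), of pyrimidine synthesis, fell most in the LV. The stress-induced small reductase subunit Rrm2b was lower in both chambers, -0.38 (SE 0.10, adjusted p = 0.00338) in the LV, a call lost under both other scalings. Mitochondrial thymidine kinase Tk2 did not pass the filter. Values of these lists were known when the lists were chosen.

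Of 24 tested regulators of S-phase entry, 18 were lower at P7 against P0 in the LV and 20 in the RV. The shares of all rows lower were 53% and 46.1%, or 29.3% and 21.2% with the upper quartile. None of the 24 was higher. The RV count was 13 with the upper quartile, 12 with the listed total and 17 with only the libraries high in NM_008710, and the LV count 16, 16 and 15. Ccna2, the cyclin of S phase and G2, went from 116 ± 11.3 to 37.1 ± 3.11 RPKM in the LV, a change of -1.61 (SE 0.16, adjusted p = 1.20e-07). Ccne1, the cyclin of the G1 to S transition, changed by -1.19 there and E2f8, a repressor of E2F targets, by -1.12, both called. The activator E2f1 stood at 17.8, 18.3 and 12.4 in LV P0, 14.3, 11.9 and 15.1 in LV P3 and 6.93, 6.27 and 7.76 in LV P7. Its differences of -0.21 (SE 0.16, adjusted p = 0.360) by P3 and -0.88 (SE 0.16, adjusted p = 6.35e-04) after it stood on either side of the threshold, and the difference between them was not called (-0.68, adjusted p = 0.219). The inhibitor Cdkn1a was low throughout, 0.954 ± 0.189 RPKM at LV P0 and 0.818 ± 0.133 at LV P7, and was not called in either chamber (-0.10 and -0.31, adjusted p = 0.545 and 0.107).

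Other measures moved with age beside these falls, and their part in them was not tested. Summed RPKM of 10 cardiomyocyte markers was 25585 to 29729 in LV P0, 27342 to 32101 in LV P3 and 23090 to 24713 in LV P7, and 26118 to 31084, 27031 to 27876 and 23311 to 25523 in the RV, so the labelled tissue showed its defining genes. At P7 against P0, 3 of the 10 were lower and 2 higher in each chamber. Of all 10668 tested rows, 5658 were lower and 1264 higher in the LV for that comparison, and 4917 and 1047 in the RV. The marker counts here and below are to be read beside these. Endothelial markers summed to 237 to 267 RPKM in LV P0 and 438 to 495 in LV P7 (6 of 9 higher), and to 238 to 294 and 344 to 350.3 in the RV (4 higher, 1 lower). Fibroblast markers (8 tested) summed to 656 to 879 in LV P0, 770.1 to 1063 in LV P3 and 1111 to 1222 in LV P7 (4 higher at P7), and to 580.4 to 804, 1020.3 to 1323 and 1191 to 1367 in the RV (6 higher). Macrophage markers (7 tested) summed to 38.8 to 42.5 in LV P0 and 60.1 to 72.8 in LV P7 (5 higher). In the RV they summed to 30.3 to 40.0 and 66.5 to 67.7 (6 higher), and at P3 to 57.6 to 75.9 against 45.8 to 56.1 in the LV. Erythroid markers were lowest at P3, with sums of 229 to 300.5 against 561 to 1093 at the other ages. Epicardial markers summed to 36.3 to 79.9 in LV P0 and 17.4 to 27.0 in LV P7 (5 of 7 lower), and to 43.8 to 100.3 and 38.5 to 41.7 in the RV (4 of 7 lower). At P3 they summed to 52.3 to 72.4 in the RV and 23.6 to 27.5 in the LV. Atrial markers summed to 858 to 1258 at P0 and 57.2 to 322 at P7 over both chambers (4 of 5 tested lower in each). Smooth muscle and pericyte markers summed to 683 to 807 in LV P0 and 493 to 519.9 in LV P7, and to 713 to 835 and 596 to 725 in the RV (3 of 5 tested lower and 1 higher in each). Thymus and lymphoid markers summed to at most 2.46 RPKM, with 10 or 11 of 11 under 1 in every group and 1 to 4 listed at 0, and the markers of skeletal muscle, liver and lung (2 tested, 5 of 7 under 1 in every group) to 1127 to 2254. Nearly all of that last sum came from the 2 tested genes, Mylpf and Ckm. Both were called lower at P7 against P0 in each chamber.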

How the data were processed

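RNA levels were measured by RNA-seq in 17 libraries of LV and RV tissue. The deposited values are RPKM per RefSeq row, taken as such from the values since no label names the unit; the authors aligned reads with STAR 2.4.0j to mm10, per the submitters' processing notes. Libraries were strand-specific and paired-end, per the labels' protocols. The read counter is not named in the labels. The values were whole multiples of 1 read for 20624 rows (100%, within 0.02 of a read), giving 27.6 to 41.1 M reads per library (M, mega), of which 16.5 to 30.0 M fell in the listed rows.

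Computed here were log2(RPKM + 1), a filter of at least 1 RPKM in at least 2 libraries, and limma 3.58.1 (R 4.3.3; 6 group means over all 17 libraries, empirical Bayes with trend, two-sided), with Benjamini-Hochberg adjustment over 10668 rows and calls under 0.05. The code was run on simulated independent counts with known changes. These lacked the shift in listed share, the pairing and the NM_008710 split, so the run gives no measure of their effect. RPKM of counted reads was treated by limma with no count model.

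The members and gene lists were chosen with earlier results of these data known. Given in full are the 2 highest members per role, the 3 largest and 3 smallest LV changes from P0 to P7, members called between chambers, up to 4 called for timing per chamber, and members not tested or not called; for each other list, the 3 largest called LV changes and Rrm2b, Tk2, Ccne1, E2f1, Mki67 and Cdkn1a. Other genes named with values were chosen after their values were seen. Markers were listed for cardiomyocytes, endothelium, fibroblasts, smooth muscle and pericytes, epicardium, macrophages, erythroid cells, thymus and lymphoid cells, atrium, and skeletal muscle, liver and lung.

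Within an age, LV and RV libraries of the same replicate number deviated together (8 pairs, r = 0.27 to 0.59; other pairs -0.40 to 0.09). Deviations were taken from group means, so the values of the other pairs partly follow from those of the same number. The main fit did not pair the chambers, and the numbers were used for pairing only in the alternatives with replicate blocks. Alternatives were other pseudocounts (0.1 and 0.5), filters, scalings, replicate blocks, row sums, a robust fit, a covariate for NM_008710, changes per day and leaving out each library.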

Additional observations from a re-analysis of the deposited data

How the results depend on the processing

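The falls from P0 to P7 kept their counts within 1.5 times under every alternative run, with 39 to 40 members in the LV and 36 to 39 in the RV when 1 library was left out; the step counts moved. For P3 against P0 in the LV (7 members), the count was 4 with no filter, 3 with upper-quartile scaling, 1 with the listed total, 2 with the NM_008710 covariate, 0 with only libraries high in NM_008710, 1 with limma voom on recovered reads and 2 to 10 with 1 library left out. For P3 against P0 in the RV (12), it was 3 with the listed total, 6 with the covariate, 3 with only high libraries, 4 with voom and 5 to 17 with 1 left out. For P7 against P3, only high libraries gave 16 in the LV (39) and 0 in the RV (25), and leaving 1 out gave 33 to 39 and 8 to 28. The RV against LV count at P3 (1) was 0 with no filter, 0 with only high libraries, 7 with the replicate block for shared animals, and 0 to 3 with 1 left out. The LV timing count (9) was 1 with no filter, 2 per day, 0 with only high libraries, 18 with voom and 0 to 20 with 1 left out. The RV timing count (2) was 0 with no filter, 8 with the listed total, 1 with the covariate, 0 per day, 0 with only high libraries, 6 with voom and 0 to 5 with 1 left out, where the 5 are calls in either direction, 4 of them with a larger later fall. The other chamber counts were 0 to 0 with 1 left out. The blocks, by animal or by number, changed no other count by more than 1.5 times. Voom and the restriction to high libraries were chosen after seeing the data, and 2 alternatives with count models were not run, since the deposited unit is RPKM.

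Of the single gene results, upper-quartile scaling weakened 48 and reversed 3, the listed total 58 and 3, and voom 64 and 3, while the restriction to high libraries weakened 106. Pola2 in the LV, -0.16 from P0 to P7, became 0.061 with the upper quartile, 0.043 with the listed total and 0.13 with voom. Rpa1 in the RV, 0.01, became -0.0043, -0.01 and -0.040 without RV P0 replicate 1, RV P0 replicate 3 and RV P7 replicate 1, and reached 0.068 without RV P7 replicate 2. Rrm2b in the RV became 0.0063 with the listed total. Cmpk1, a nucleotide kinase, became 0.0049 in the LV with the upper quartile and 0.041 with voom. Cdkn1b in the RV became 0.0052, 0.017 and 0.011 with the upper quartile, the listed total and voom. The cause of these changes was not tested. The values of Fen1 and Rpa1 rest on few reads in the rows used, the 4 untested members did not pass the filter, and whether their rows leave out shared reads was not tested.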

Other observations

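Some regulators of S-phase entry were called in neither chamber from P0 to P7. Cyclin D1, Ccnd1, which activates Cdk4 and Cdk6 in G1, stood at 54, 55.6 and 53.9 RPKM in LV P0 and 60.2, 57.4 and 61.1 in LV P7 (0.13, limma adjusted p = 0.218). Its partner Cdk4 went from 179 ± 17 to 82.8 ± 5.14 RPKM (SD, n = 3) in the LV, a change of -1.10 (SE 0.10, adjusted p = 5.21e-08), while the differences of Cdk6 were -0.33 in the LV and 0.29 in the RV (adjusted p = 0.0707 and 0.154). E2f4, mostly a repressor in resting cells, had differences of -0.20 and -0.23 (adjusted p = 0.103 and 0.113). The E2F motif stood in a promoter window of 7 of 20 genes of this list (35.0%), of 9 of 27 of the further replication factors (33.3%) and of 0 of 15 of the further deoxynucleotide supply genes. These genes were singled out after their values were seen.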
